A study of Mus musculus with 6 samples.

Results

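The basic helix-loop-helix (bHLH) factors of cortical excitatory neurons and their antagonists were described in the somatosensory cortex of *Mef2c* cKO and control mice. The genes were found in the data by their symbols, with no use of measured values in the rule. The set was, however, chosen with earlier results of these data known. It holds 10 of the 21667 named genes in the data, namely *Neurod1*, *Neurod2*, *Neurod6*, *Bhlhe22*, *Bhlhe40*, *Id1*, *Id2*, *Id3*, *Id4* and *Hes5*. PolyA RNA was sequenced from adult males of mixed SVeV-129; C57BL/6J background, 3 of genotype Mef2cfl/fl; Emx1-Cre (*Mef2c* cKO) and 3 of genotype Mef2cfl/fl (control). Mice of both genotypes were 14 weeks old in replicate 1 and 12 weeks old in replicates 2 and 3. Controls carried the floxed alleles and no Cre, and in *Mef2c* cKO mice Cre was knocked into *Emx1*, so that the Cre allele and the loss of *Mef2c* cannot be told apart. Emx1-Cre is active in the lineage of forebrain excitatory neurons, and this lineage includes some glia.

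bHLH proteins bind DNA as pairs at a short site called the E-box. NeuroD factors pair with E proteins and activate transcription in differentiating and mature excitatory neurons, whereas Bhlhe22, Bhlhe40 and the Hes family repress. Id proteins have the helix-loop-helix but no basic region, so they hold E proteins in pairs that cannot bind DNA. BMP signalling through Smad proteins is a known inducer of *Id* genes, and Notch signalling is a known inducer of *Hes5*. In the adult brain *Id* genes are known to be transcribed in astrocytes and vascular cells as well as in neurons.

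Levels are given as CPM (reads on a gene per 1000000 reads of the sample), made from whole reads that were recovered from the deposited RPKM values. Sample totals ranged from 19326365 to 54128334 reads. The genotypes were compared with limma on log2(CPM + 0.1), and a gene passed at a Benjamini-Hochberg adjusted p-value under 0.05 with an absolute log2 fold change above 0.3. Of 14625 tested genes, 1997 (13.7%) passed, with 860 (5.88%) higher and 1137 (7.77%) lower in *Mef2c* cKO cortex. *Mef2c* itself was higher in all 3 libraries labelled cKO, at 1231, 1276 and 1468 CPM against 800.3, 771.8 and 800.2 CPM in the controls. Reads were counted over the whole gene and not over the floxed part, so this count does not check the deletion. *Emx1*, which carries the Cre insertion, was lower in *Mef2c* cKO cortex (5.26 against 18.5 CPM, log2 fold change -1.79, limma adjusted p = 1.24e-05). The excitatory neuron genes *Slc17a7* and *Camk2a*, which mark the main cell class of the cortex, stood at 1191 and 3346 CPM in controls and at 1241 and 3330 CPM in *Mef2c* cKO mice. These genes were picked after their values were seen and do not stand for the class, of whose 14 markers 4 rose and 5 fell.

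All 10 genes passed the filter on low values and 6 of them passed the cut-offs, beside 13.7% of all tested genes. Of these, 5 had an increased level (*Neurod6*, *Id3*, *Id1*, *Neurod2* and *Id4*, beside 5.88% of tested genes that rose) and *Bhlhe22* had a decreased level (beside 7.77%). *Neurod1*, *Bhlhe40*, *Id2* and *Hes5* did not pass. The median log2 fold change of the 10 genes was 0.34, beside 0.0079 over all tested genes. The CPM of the genotypes did not overlap for 7 of the 10 genes, beside 33.8% of all tested genes. Every *Mef2c* cKO mouse was above every control for 5 of them (16.3% of all tested genes) and below for 2 (17.5%). With 3 mice against 3, a two-sided exact permutation test of a single gene cannot give a p-value below 0.1, and each of these 7 genes reached that value. In bulk tissue, fewer cells of a type and less RNA per cell cannot be told apart.

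**Figure D1:**
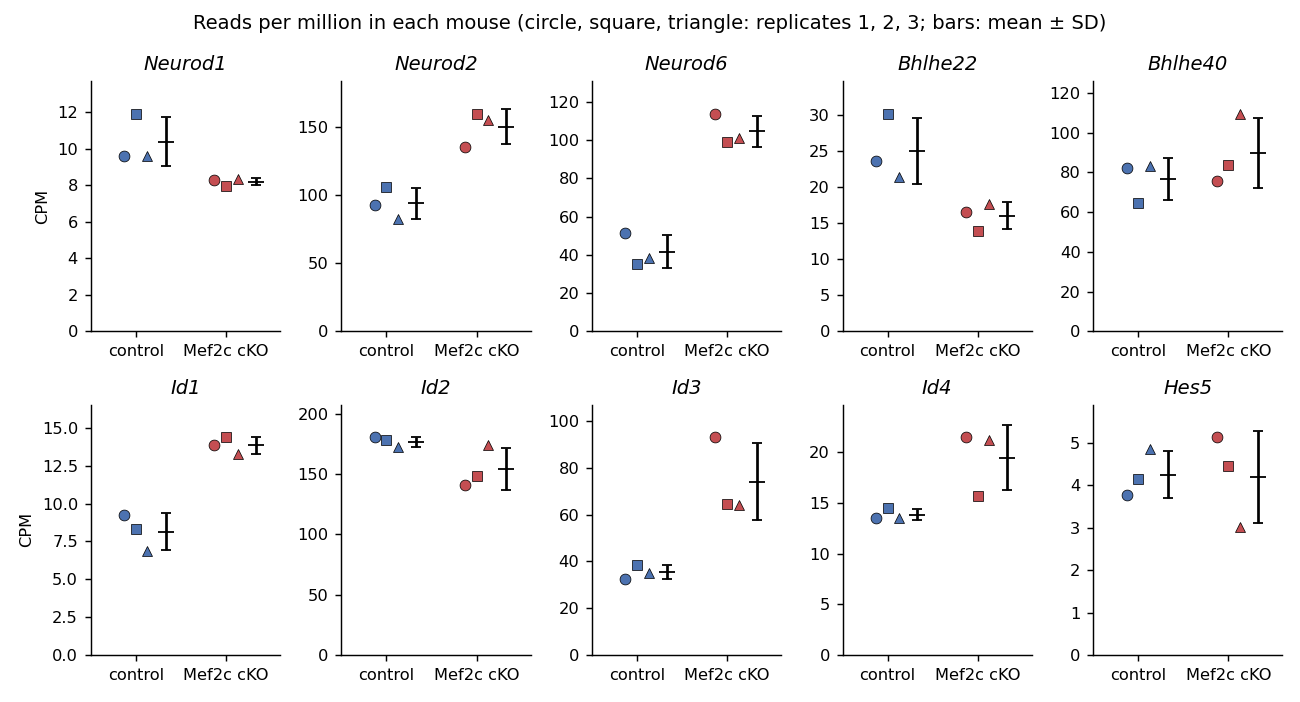
CPM (linear axis from 0) of the 10 genes in each control (blue) and Mef2c cKO (red) mouse, with replicates 1, 2 and 3 as circle, square and triangle and the mean ± SD (n = 3) in black. The genotypes are apart for 7 genes, and they overlap for Bhlhe40, Id2 and Hes5.

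The activators are taken first. *Neurod6* (gene ID 11922), which marks postmitotic excitatory neurons of the cortex and hippocampus, lies on chromosome 6 at 55627812 to 55631257 of mm9 on the minus strand, with 2 exons. It stood at 51.5, 35.1 and 38.3 CPM in control replicates 1, 2 and 3 and at 113.8, 99.0 and 100.9 CPM in *Mef2c* cKO replicates 1, 2 and 3. The lowest *Mef2c* cKO mouse was well above the highest control, and replicate 1 was the highest mouse in both genotypes. The mean rose from 41.7 ± 8.69 to 104.6 ± 8.04 CPM (SD, n = 3 mice per genotype), a fold change of 2.54 (95% interval 2.07 to 3.1). On the log2 scale this was 1.34 with a standard error of 0.13 (limma adjusted p = 0.000135), and it was the largest change among the 10 genes.

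*Neurod2* (gene ID 18013), an activator of synaptic and laminar identity genes in excitatory neurons, lies on chromosome 11 at 98186729 to 98190962 of mm9 on the minus strand. Controls had 92.7, 105.7 and 82.6 CPM and *Mef2c* cKO mice had 135.2, 159.5 and 154.7 CPM, so that no mouse of either genotype fell within the range of the other. The increase was 1.6-fold (95% interval 1.38 to 1.86), or 0.68 on the log2 scale with a standard error of 0.10, and it passed (limma adjusted p = 0.00123).

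*Neurod1* (gene ID 18012) drives the differentiation of dentate gyrus granule cells and of pancreatic islet cells. It lies on chromosome 2 at 79292678 to 79296908 of mm9 on the minus strand. Its values were 9.59, 11.9 and 9.60 CPM in controls and 8.31, 7.97 and 8.33 CPM in *Mef2c* cKO mice. These last 3 values were below all 3 control values, and they lay close together. The log2 fold change of -0.33 (standard error 0.11) did not pass the adjusted cut-off (limma adjusted p = 0.089), and its 95% interval was -0.59 to -0.07. The gene model of *Neurod1* overlaps that of *Cerkl* on the same strand and that of *Gm17325* on the opposite strand. *Cerkl* itself had 25 to 184 reads per mouse and fell by 1.19 on the log2 scale (limma adjusted p = 0.00374), and its part in the *Neurod1* count was not tested.

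*Neurod2* and *Neurod6* both rose, so the 250 bases before their transcription starts are shown, taken from RefSeq on GRCm38.p6 and written 5′ to 3′ in the direction of transcription. Capitals mark the E-box CANNTG, searched on both strands, to which NeuroD proteins bind. RefSeq promoters were matched for 7 of the 10 genes, and *Bhlhe22*, *Bhlhe40* and *Id1* are without one here. The windows are chr11:98329646-98329895 for *Neurod2* and chr6:55681264-55681513 for *Neurod6*, both on the minus strand.
Neurod2: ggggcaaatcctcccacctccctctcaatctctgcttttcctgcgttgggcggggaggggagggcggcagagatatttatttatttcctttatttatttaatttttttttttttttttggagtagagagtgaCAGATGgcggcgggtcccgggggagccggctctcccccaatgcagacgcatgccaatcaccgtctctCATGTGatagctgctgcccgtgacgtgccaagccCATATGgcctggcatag
Neurod6: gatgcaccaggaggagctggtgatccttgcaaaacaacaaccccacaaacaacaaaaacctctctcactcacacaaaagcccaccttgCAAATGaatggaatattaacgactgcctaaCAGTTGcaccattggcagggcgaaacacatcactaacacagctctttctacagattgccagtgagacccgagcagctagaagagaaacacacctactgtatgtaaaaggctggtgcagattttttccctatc
The *Neurod2* window holds 3 E-boxes and the *Neurod6* window 2, and 66.2% of all 32851 RefSeq promoter windows of 250 bases hold at least 1. The *Neurod6* window also holds 3 copies of the N-box CACNAG, a site bound by Hes proteins that is present in 36.7% of all windows and that shares no base with the E-boxes here. The MEF2 motif, the site of MEF2 proteins, was found in 2.92% of all windows and in none of the 7 windows of these genes. A match is a description of these letters and not a site shown to be bound.

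Within the *Neurod* genes the shares of the 3 transcripts were apart between genotypes. In CPM per kb of exon, a unit that can be compared between genes, *Neurod6* made up at most 42.0% of the summed *Neurod* level in a control and 53.4, 46.1 and 47.2% in *Mef2c* cKO replicates 1, 2 and 3. *Neurod1* made up 6.17 to 8.05% in controls and 2.93 to 3.08% in *Mef2c* cKO mice. The ratio of *Neurod6* to *Neurod2* was 0.485 to 0.81 in controls and 0.906 to 1.23 in *Mef2c* cKO mice, so that the ranges did not overlap. The summed level was 47.6 to 56.9 in controls and 98.9 to 99.7 CPM per kb of exon in *Mef2c* cKO mice.

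**Figure D2:**
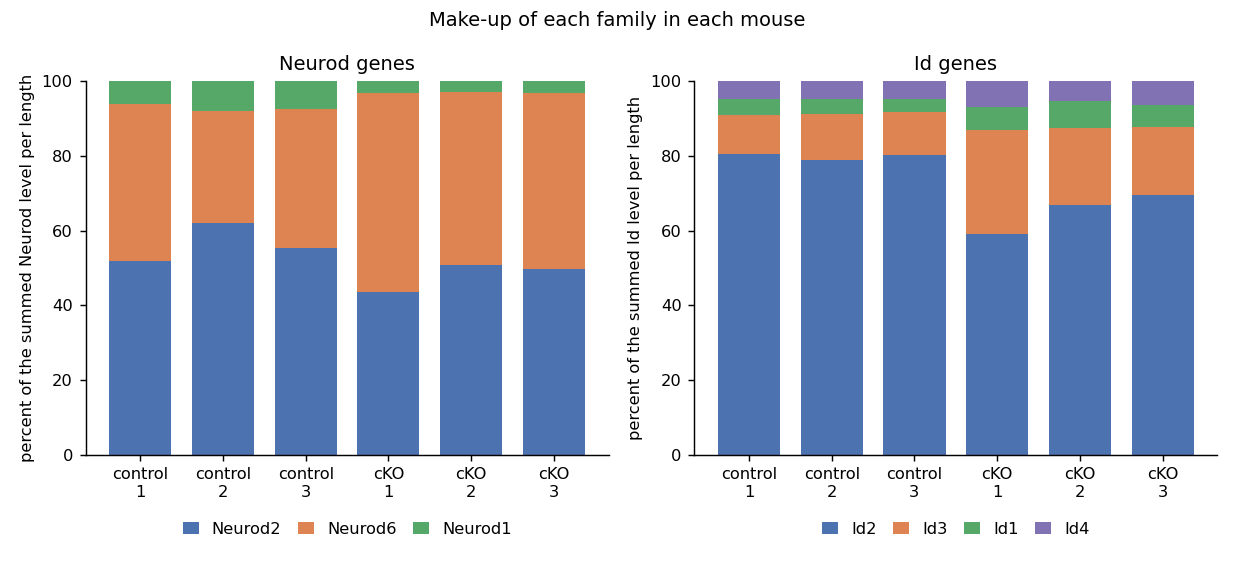
Percent of the summed level (CPM per kb of exon) held by each Neurod gene (left) and each Id gene (right) in each mouse, as stacked bars. Neurod6 holds a larger share and Neurod1 a smaller share in every Mef2c cKO mouse than in any control, and Id2 holds 79.0 to 80.5% of the Id level in controls and 59.1 to 69.5% in Mef2c cKO mice.

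The repressors come next. *Bhlhe22* (gene ID 59058), a repressor with a known part in cortical area identity and corticospinal axon growth, is a gene of 1 exon on chromosome 3 at 17954325 to 17957509 of mm9 on the plus strand. It stood at 23.6, 30.2 and 21.4 CPM in controls and at 16.5, 13.9 and 17.6 CPM in *Mef2c* cKO mice. Every cKO mouse was below the lowest control, and the controls were the more spread (SD of 18.2% of the mean against 11.9%). The level in *Mef2c* cKO cortex was 0.644 of the control level (95% interval 0.52 to 0.799), a log2 fold change of -0.63 with a standard error of 0.14 (limma adjusted p = 0.0125). In the 12-week mice alone the log2 fold change was -0.69 and the call was lost (limma adjusted p = 0.063).

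*Bhlhe40* (gene ID 20893), a repressor linked to the circadian clock and to neuronal activity, lies on chromosome 6 at 108610623 to 108616919 of mm9 on the plus strand, and *0610040F04Rik* overlaps it on the opposite strand. Controls had 82.1, 64.7 and 83.5 CPM and *Mef2c* cKO mice had 75.6, 83.8 and 109.6 CPM. The genotypes overlapped, and only replicate 3 of the *Mef2c* cKO mice stood clear of the other mice. The difference of 0.22 on the log2 scale had a 95% interval of -0.10 to 0.53 and did not pass (limma adjusted p = 0.361).

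*Hes5* (gene ID 15208), a Notch target that holds neural progenitors undifferentiated and is kept in some adult glia, lies on chromosome 4 at 154335032 to 154336480 of mm9 on the plus strand, and *RP24-89N4.5* overlaps it on the opposite strand. It was the shallowest of the 10 genes, with 86 to 250 reads per mouse. The values of 3.76, 4.15 and 4.85 CPM in controls and of 5.13, 4.45 and 3.01 CPM in *Mef2c* cKO mice were interleaved. The log2 fold change was -0.04 (standard error 0.20, limma adjusted p = 0.915). The 95% interval ran from -0.50 to 0.41, so a rise or a fall within this range was not excluded. In *Mef2c* cKO replicate 2, the shallowest library, the 95% Poisson interval of the 86 reads was 3.56 to 5.50 CPM. The 250 bases before the *Hes5* start hold 2 copies of TGGGAA, the core of the site of the Notch effector Rbpj, which 21.6% of all windows hold on either strand.

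Of the *Id* antagonists, *Id1*, *Id3* and *Id4* passed the cut-offs and *Id2* did not, and the difference between their changes was not tested. *Id3* (gene ID 15903), an inhibitor of E proteins that is abundant in astrocytes and vessels, lies on chromosome 4 at 135699412 to 135701670 of mm9 on the plus strand. It stood at 32.6, 38.5 and 35.3 CPM in controls and at 93.2, 64.8 and 64.4 CPM in *Mef2c* cKO mice. Replicate 1 of the *Mef2c* cKO mice was the highest, and the other two were still far above every control. The mean rose from 35.4 ± 2.94 to 74.1 ± 16.5 CPM (SD, n = 3 mice per genotype), a 2.06-fold increase (95% interval 1.67 to 2.55) with a log2 fold change of 1.04 and a standard error of 0.14 (limma adjusted p = 0.000774). Without that mouse the log2 fold change was 0.87 (limma adjusted p = 0.000428).

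*Id1* (gene ID 15901), a classical BMP-induced inhibitor, lies on chromosome 2 at 152561987 to 152563146 of mm9 on the plus strand. Controls had 9.26, 8.34 and 6.87 CPM and *Mef2c* cKO mice had 13.9, 14.4 and 13.3 CPM. The *Mef2c* cKO mice were tightly grouped above the controls. The increase was 1.7-fold (95% interval 1.41 to 2.06), or 0.77 on the log2 scale with a standard error of 0.12 (limma adjusted p = 0.00233).

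*Id4* (gene ID 15904), which is known for its part in neural progenitor division and in the timing of glial differentiation, lies on chromosome 13 at 48356796 to 48359405 of mm9 on the plus strand, and *A330033J07Rik* overlaps it on the opposite strand. It stood at 13.6, 14.5 and 13.5 CPM in controls and at 21.5, 15.7 and 21.2 CPM in *Mef2c* cKO mice. Each of the 3 was above the controls, with replicate 2 close to them. The log2 fold change was 0.47 with a standard error of 0.12 (limma adjusted p = 0.0303). This call was the least stable of the 6. The adjusted p was 0.0848, 0.0618 and 0.0871 without control replicates 1, 2 and 3, 0.103 and 0.0984 without *Mef2c* cKO replicates 1 and 3, and 0.00303 without *Mef2c* cKO replicate 2.

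*Id2* (gene ID 15902), which in the cortex is present in subsets of neurons and in the oligodendrocyte lineage, lies on chromosome 12 at 25778666 to 25780957 of mm9 on the minus strand. It was the most abundant of the *Id* genes, with 180.6, 178.1 and 172.6 CPM in controls and 141.1, 148.5 and 174.0 CPM in *Mef2c* cKO mice. Replicates 1 and 2 of the *Mef2c* cKO mice were below all controls, and replicate 3 lay among them. The log2 fold change of -0.20 (standard error 0.08) did not pass (limma adjusted p = 0.122), and its 95% interval was -0.38 to -0.03.

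The promoter windows of *Id2* and *Id3* are set beside each other because *Id3* passed the cut-offs with an increase and *Id2*, its most abundant paralog, did not pass. They are chr12:25096093-25096342 on the minus strand for *Id2* and chr4:136143572-136143821 on the plus strand for *Id3*, with E-boxes again in capitals.
Id2: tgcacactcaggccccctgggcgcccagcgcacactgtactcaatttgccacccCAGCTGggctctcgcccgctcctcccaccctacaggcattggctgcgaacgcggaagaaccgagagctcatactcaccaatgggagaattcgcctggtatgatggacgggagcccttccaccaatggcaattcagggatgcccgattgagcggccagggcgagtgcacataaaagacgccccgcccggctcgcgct
Id3: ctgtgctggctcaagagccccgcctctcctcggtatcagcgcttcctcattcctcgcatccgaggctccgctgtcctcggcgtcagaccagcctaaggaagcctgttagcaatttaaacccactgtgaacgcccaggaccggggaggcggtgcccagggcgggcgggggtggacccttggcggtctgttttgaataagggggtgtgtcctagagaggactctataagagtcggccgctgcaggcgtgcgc
The *Id2* window holds 1 E-box and the *Id3* window none, and the *Id4* window also holds none. The G and C content was 62.8% in both windows shown, beside a median of 52.4% over all windows. GGCGCC, a sequence of the kind bound by BMP-regulated Smad proteins, was found once in the *Id2* and once in the *Id4* window, 4 times in the *Hes5* window and not in the *Id3* window, and 9.59% of all windows hold it.

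The balance within the *Id* genes was also apart between genotypes. Per length, *Id2* made up 80.5, 79.0 and 80.1% of the summed *Id* level in control replicates 1, 2 and 3 and 59.1, 66.8 and 69.5% in *Mef2c* cKO replicates 1, 2 and 3. *Id3* made up 10.3 to 12.1% in controls and 18.2 to 27.7% in *Mef2c* cKO mice. The summed *Id* level overlapped between genotypes, at 169.6 to 177.7 in controls and 175.0 to 197.2 CPM per kb of exon in *Mef2c* cKO mice. The ratio of the summed *Neurod* to the summed *Id* level was 0.281 to 0.322 in controls and 0.503 to 0.57 in *Mef2c* cKO mice.

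**Figure D3:**
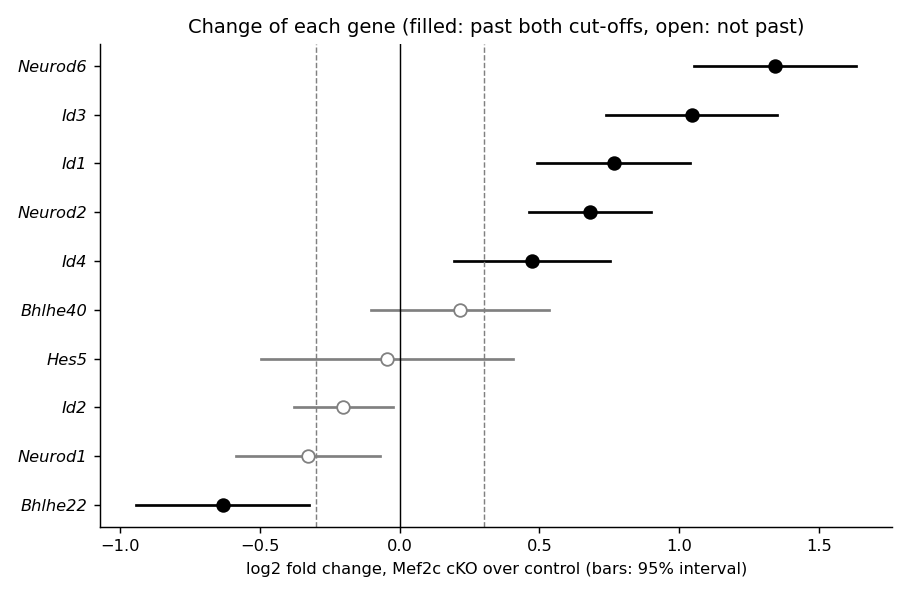
Log2 fold change of each gene, Mef2c cKO over control, with its 95% interval from limma (n = 3 mice per genotype). Filled points passed both cut-offs, dashed lines mark an absolute log2 fold change of 0.3, and the genes run from Neurod6 at 1.34 to Bhlhe22 at -0.63.

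The order of the genes was compared per length. In controls *Id2* was highest with 139.5 ± 3.23 CPM per kb of exon (SD, n = 3), followed by *Neurod2* with 29.8 ± 3.68 and *Bhlhe40* with 23.5 ± 3.19. *Id3* with 19.8 ± 1.64 and *Neurod6* with 19.3 ± 4.03 came next. The control mice of *Bhlhe40* and *Id3* overlapped, as did those of *Id3* and *Neurod6*, so these neighbours were not separated. *Id4* (8.35), *Bhlhe22* (7.87) and *Id1* (7.03) formed a lower step in which neighbours overlapped, and *Neurod1* (3.8) and *Hes5* (3.12) overlapped at the bottom. In *Mef2c* cKO mice *Id2* remained highest with 121.7 ± 13.6, and *Neurod6* (48.6), *Neurod2* (47.7) and *Id3* (41.4) followed with overlapping mice. *Neurod6* thus went from the fifth to the second place, and *Bhlhe22* (5.03) lay below both *Id1* (11.9) and *Id4* (11.7). Exon lengths came from the GENCODE annotation of the same build, which may differ from the gene models the reads were counted on.

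**Figure D4:**
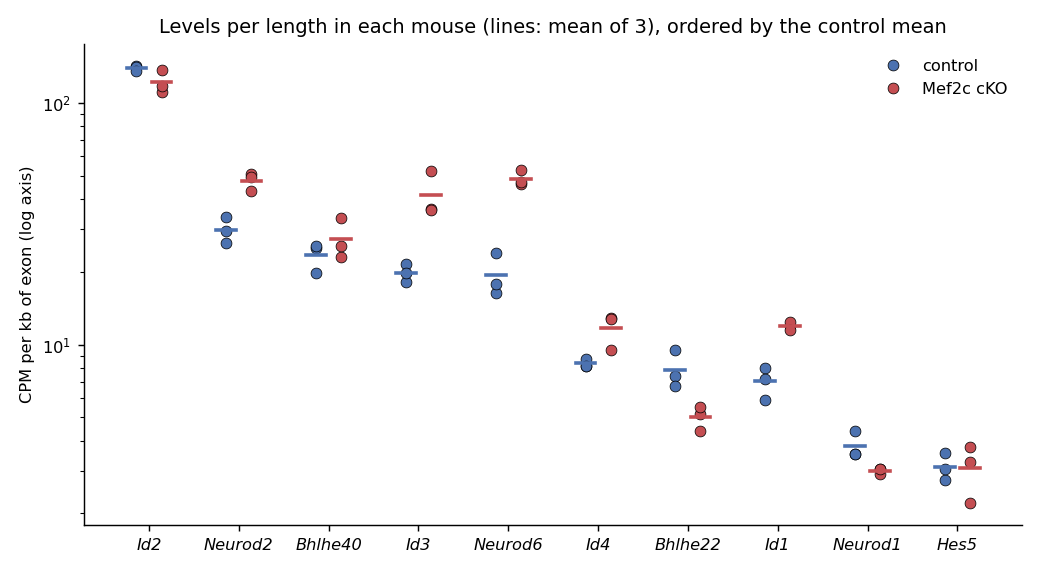
CPM per kb of exon (log axis) of the 10 genes in each control (blue) and Mef2c cKO (red) mouse, with a line at the mean of 3 mice, ordered by the control mean. Id2 stands apart at the top in both genotypes, and Neurod6 moves from 19.3 to 48.6.

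Partners and regulators of these factors were read from lists of related genes. None of the 3 E proteins, the shared partners of NeuroD and Id proteins, passed the cut-offs, and their log2 fold changes were 0.19 for *Tcf4* (741.9 against 651.5 CPM, limma adjusted p = 0.0874), 0.12 for *Tcf3* and 0.05 for *Tcf12*, with 1 of them at an unadjusted p under 0.05. *Tcf4* was above the controls in every *Mef2c* cKO mouse. Of 13 other neural bHLH genes 8 were tested, and 5 rose and 1 fell, with a list median of 0.40. The list was drawn up as activators, but it also holds *Olig2*, a known repressor, so these counts do not describe activators alone. *Atoh8* rose from 0.941 to 3.25 CPM and *Nhlh1* from 0.594 to 1.51 CPM (log2 fold changes 1.67 and 1.23, limma adjusted p = 0.00144 and 0.00349). *Olig1* and *Olig2*, factors of the oligodendrocyte lineage, each rose by 0.39 on the log2 scale (limma adjusted p = 0.0105 and 0.0153). *Atoh7* fell from 1.54 to 0.824 CPM (-0.84, limma adjusted p = 0.0212), while *Nhlh2* (0.40) and *Neurod4* (-0.57) did not pass.

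Of 10 other bHLH repressors 7 were tested, 1 rose and 1 fell, with a list median of -0.07. *Hes3* fell from 9.97 to 1.23 CPM (log2 fold change -2.92, limma adjusted p = 1.98e-05), and it was at 8.17 to 12.4 CPM in controls and 1.04 to 1.57 CPM in *Mef2c* cKO mice. *Bhlhe41*, the close relative of *Bhlhe40*, rose from 13.9 to 23.4 CPM (0.73, limma adjusted p = 0.00119), whereas *Bhlhe40* itself did not pass. *Hey1* (0.07), *Hes1* (-0.30, limma adjusted p = 0.0652) and *Hes6* (0.13) did not pass.

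All 20 genes of the Notch pathway, upstream of *Hes5*, were tested, and 3 rose and 5 fell, with a median of 0.08. The ligand *Dll1* (log2 fold change 0.60), the receptor *Notch1* (0.34) and the coactivator *Maml2* (0.50) rose. The DNA-binding effector *Rbpj* (-0.35), the ligand *Jag2* (-0.49), the inhibitor *Numb* (-0.57), the feedback gene *Nrarp* (-0.45) and the coactivator *Maml3* (-0.75) fell. The most abundant genes that did not pass were *Dner* (0.26), *Numbl* (0.20) and *Rfng* (0.13). All 18 genes of the BMP to Smad pathway, upstream of the *Id* genes, were tested, and 2 rose and 1 fell, with a median of 0.14. The ligand *Bmp2* rose from 2.59 to 9.40 CPM (1.80, limma adjusted p = 0.000371), with 6.69 to 10.8 CPM in *Mef2c* cKO mice and 2.26 to 3.12 CPM in controls. The BMP antagonist *Chrd* rose (0.54) and the receptor *Acvr2a* fell (-0.36), while the receptors *Bmpr1a* (0.20) and *Acvr1* (0.22) and the shared *Smad4* (-0.11) did not pass. *Acvr1* was above the controls in every *Mef2c* cKO mouse and under the p threshold (limma adjusted p = 0.0362). It missed only the fold cut-off. Over these 5 lists 19 of 56 tested genes passed, beside 13.7% of all tested genes.

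**Figure D5:**
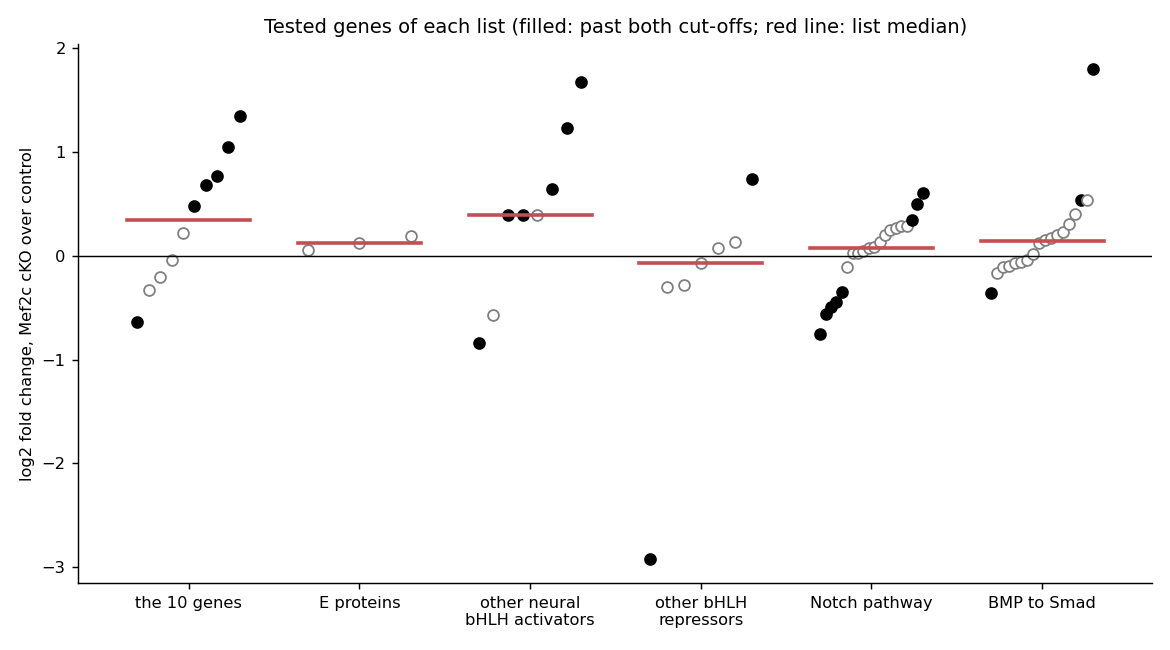
Log2 fold change, Mef2c cKO over control, of each tested gene in the set of 10 and in 5 lists of related genes, with filled points for genes past both cut-offs and a red line at the median of each list. Hes3 lies at -2.92 and Bmp2 at 1.80, and the Notch list has 3 genes past the cut-offs above 0 and 5 below.

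Marker genes of cell classes were read in the same mice. Of 14 excitatory neuron markers 4 rose and 5 fell, led by *Emx1* (-1.79), *Rorb* (-1.74), *Cux2* (-1.74) and *Tbr1* (0.69), and their summed level was 6857 to 8019 CPM in controls and 7080 to 8024 CPM in *Mef2c* cKO mice. The median log2 fold change of this list was 0.02 and the change of its mean log2 level was -0.27, so the signs differed. Of 15 astrocyte markers, *Gfap* (1.37) and *Aqp4* (0.73) rose and *Aldh1l1* (-0.39) fell, and the summed level was 5386 to 5709 CPM in controls and 4830 to 5126 CPM in *Mef2c* cKO mice. Most of this sum was *Slc1a2* (mean 3407 and 2864 CPM), and the list's median log2 fold change was -0.04 while its mean log2 level was higher by 0.081, so the astrocyte markers gave no single direction. Of 15 markers of the oligodendrocyte lineage 3 rose past the cut-offs (*Cldn11* 0.77, *Mobp* 0.64 and *Sox10* 0.44). The shift was wider than these 3 genes, since 14 of the 15 log2 fold changes were positive and only *Pdgfra* (-0.04) was negative. The list median was 0.45, and 11 markers were at an unadjusted limma p under 0.05. The sum was 3430 to 5570 CPM in controls and 5490 to 7031 CPM in *Mef2c* cKO mice. None of 15 microglial, 15 endothelial or 10 mural cell markers passed in limma, with 3, 1 and 2 at an unadjusted p under 0.05. The endothelial sum was 475.9 to 519.5 CPM in controls and 458.3 to 498.0 CPM in *Mef2c* cKO mice. The microglial sums were 582.7 to 913.5 and 446.9 to 695.8 CPM, and the mural sums 163.1 to 164.7 and 150.2 to 181.2 CPM. Of 15 interneuron markers *Cck* (0.82), *Sst* (0.57) and *Npy* (0.54) rose and *Pvalb* (-0.80) fell. The interneuron sums were 1909 to 1983 CPM in controls and 1988 to 2112 CPM in *Mef2c* cKO mice. The mean of *Cck* alone went from 252.2 to 445.8 CPM, so these sums do not stand for the class. The list median was 0.06, with 9 of the 15 log2 fold changes positive. No marker of these classes was at 0 in all mice, and the part of these shifts in the bHLH and *Id* results was not tested.

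Neighbouring tissue was read in the same way. The sum of 8 striatal markers was 150.2 to 208.9 CPM in controls and 112.0 to 302.0 CPM in *Mef2c* cKO mice, with *Drd1* (1.70) past the cut-offs of 7 tested. Of 5 dentate gyrus markers *C1ql2* fell (-1.40), and the sums were 38.7 to 41.3 and 33.8 to 39.3 CPM. Of 5 thalamic markers *Prkcd* rose (0.55) and *Slc17a6* fell (-0.59), with sums of 48.5 to 59.2 and 42.9 to 52.1 CPM. Of 5 choroid plexus and ependymal markers *Foxj1* rose (0.79), with sums of 11.3 to 35.3 and 15.8 to 17.3 CPM. The share of these tissues in the *Neurod* and *Id* differences was not tested.

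The genes whose pattern over the 6 mice was most like that of *Neurod6* and of *Bhlhe22* were found by the Euclidean distance of log2(CPM + 0.1) values, each relative to the control mean, among 11751 genes with a mean of at least 5 CPM. For *Neurod6* these were *Cbln2* (distance 0.317), *Ptgs2* (0.368) and *Chrna5* (0.372), with log2 fold changes of 1.36, 1.22 and 1.33. For *Bhlhe22* they were *Synpr* (0.116), *Ajap1* (0.185) and *Trp53i11* (0.2), with log2 fold changes of -0.60, -0.69 and -0.60. The distance follows the size of the change, so these genes were alike by construction in that respect.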

How the data were processed

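The authors sequenced polyA RNA with a directional library, aligned the reads to mm9 with TopHat and Bowtie and counted them on genes with HTSeq, per the paper's methods and the submitters' processing notes. Tool versions and the strand setting of the count are not given in the sources used here. The deposited values are RPKM, made by the authors from those counts, in 1 table per mouse. Samples were grouped by their labels.

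Within each table the deposited RPKM values were whole multiples of what 1 read is worth over a list of 65 to 295 lengths that recurred along the rows in the order of gene IDs, so that the length behind a gene differed between mice. The length list and the sample total were found from the steps, and each gene's count from its place in that order. A count was recovered in all 6 mice for 21620 of 21667 named genes, and recovered reads summed to 99.99% of the total in every mouse. A further 92 rows without a gene name held 0.0574 to 0.0853% of reads and were left out. Gene IDs came from RefSeq (21597 symbols matched). On simulated tables the method gave back 6 of 6 totals, and 100.0% of the counts it returned were right. These tables were built with the same recurring order of lengths, and its period and gaps were taken from the recovered data. They therefore test the calculation and cannot check that the deposited tables follow this order.

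CPM were tested with limma 3.58.1 in R 4.3.3 (lmFit, eBayes with a variance trend) on log2(CPM + 0.1), for genes above 0.5 CPM in every mouse of a genotype with at least 2 counts in each. The pseudocount makes the change of low genes look smaller than it is. On simulated counts 90% of genes changed by 0.6 and 99% of genes changed by 1 on the log2 scale were called, with 8 false calls. The simulation gave every gene the same spread between mice beyond counting error and changed only genes above 1 CPM. These figures therefore need not hold for genes that vary more between mice. Intervals from reads cover counting error only. Without the strand setting, genes that overlap on opposite strands cannot be told apart in the counts. Descriptions and plots used Python 3.11.15, pandas 2.3.3, scipy 1.17.1 and matplotlib 3.10.9.

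The 10 genes, the lists and the tests were chosen with earlier results of these data known. All 10 genes were named. Of each list of related genes those past the cut-offs were named, with up to 3 of the most abundant others. Of each marker list up to 4 past the cut-offs were named by size of change, and *Slc17a7* and *Camk2a* besides, after their values were seen. *Drd1a* was matched as *Drd1* by gene ID. Alternatives were the deposited RPKM, other pseudocounts, filters, scaling, variance models and fold cut-offs, voom weights, a replicate block, the 12-week mice alone and each mouse left out.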

Additional observations from a re-analysis of the deposited data

How the results depend on the processing

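*Neurod2*, *Neurod6*, *Id1* and *Id3* kept their direction and their call in every refit on recovered CPM, including each mouse left out, and so did *Bhlhe22* except in the 12-week mice alone. *Neurod1*, *Bhlhe40* and *Id2* did not pass both cut-offs in any of these refits. *Id2* came closest without *Mef2c* cKO replicate 3, where it was under the p threshold (limma, adjusted p = 0.016). Its change there, -0.29 on the log2 scale, missed only the fold cut-off of 0.3. *Id4* lost its call in 8 of 16 alternatives, among them no variance trend (adjusted p = 0.0619), the replicate block (0.0632) and the 12-week mice alone (0.195). *Hes5* turned positive without control replicate 3 or *Mef2c* cKO replicate 3, and its log2 fold change ranged from -0.20 to 0.17 with each mouse left out (0.05 and 0.17 in those fits). With each mouse left out, 5 to 6 of the 10 genes passed, 1657 to 1869 of all genes and 13 to 19 of the list genes.

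On the deposited RPKM values 14 of 7974 tested genes passed (9 higher, 5 lower), with 0 of the 6 tested among the 10 genes and 0 of 24 list genes. At an unadjusted limma p under 0.05 these counts were 677, 1 and 2. *Bhlhe22* was reversed there, at 1.27 (adjusted p = 0.907), since the lengths behind a gene differed between mice. The control values of *Hes5* spanned 236-fold in RPKM and 1.29-fold in CPM. With a fold cut-off of 1 on the log2 scale, 2 of the 10 genes (*Neurod6* and *Id3*), 472 of all genes and 4 list genes passed.

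The deviations of same-numbered mice from their genotype means had r of -0.176, -0.109 and -0.0816 for replicates 1, 2 and 3. Mice with unlike numbers had r of -0.0249 to 0.122, so same-numbered mice were not more alike in this measure. The deviations of a genotype sum to 0 for each gene, so the values depend on each other. Whether the numbers pair the samples was not tested. The numbers do share age, at 14 weeks in replicate 1 and 12 weeks in replicates 2 and 3. With the replicate block 5 of the 10 genes, 1695 of all genes and 18 list genes passed, and no mouse of either genotype correlated best with its own number. The depth limits *Hes5* most, with 86 reads in the shallowest library.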
